A study of Mus musculus with 8 samples.

Results

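The expression of 10 chemokine genes that act mainly on monocytes and lymphocytes was examined in mouse articular chondrocytes cultured with or without IL-1β. They were 10 of the CC, CX3C and CXC ligands that are not CXCR2 ligands, taken by name from the table of 54658 gene symbols. They comprise 5 CC genes (*Ccl2*, *Ccl5*, *Ccl7*, *Ccl20*, *Ccl25*), 4 CXC genes (*Cxcl10*, *Cxcl12*, *Cxcl14*, *Cxcl16*) and 1 CX3C gene (*Cx3cl1*). The 10 were chosen with earlier results of these data known and are not the whole family. A further 21 chemokine ligands are described below. All 10 members were found in the table. The cells had been dissected from femoral head cartilage of 3-week-old wild-type mice, digested with collagenase and cultured. The IL-1β group (4 samples) received 1 ng/mL for 24 h, and the vehicle group (4 samples) received vehicle for the same time. Whether the 4 samples of a group came from separate animals or cultures was not given in the sources used here, so that p-values measure the spread between these samples, which may be technical.

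Chemokines are small secreted proteins that guide leukocytes along concentration gradients by binding G protein-coupled receptors. The spacing of the first cysteines divides them into CC, CXC and CX3C families. In joints, chondrocytes and synovial cells can release them in response to IL-1β, which signals through NF-κB. Atypical receptors such as ACKR3 and ACKR4 bind chemokines without the usual G protein signal and clear them. CX3CL1 and CXCL16 are unusual because they are made as membrane proteins and are cut from the cell surface by the proteases ADAM10 and ADAM17.

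Total counts were 10992355 to 17104351 with IL-1β and 13970959 to 17456063 with vehicle, so that a floor of 3 counts per sample corresponds to 0.172 to 0.273 CPM. This limit covers counting error only. A single noncoding RNA gene, *Gm26917*, took 13.2 to 14.6% of the counts in each sample. All 10 chondrocyte markers passed the filter on low counts, with summed levels of 6137 to 6663 CPM with IL-1β and 16981 to 17565 CPM with vehicle. Of these, 9 were called lower and 1 (*Prg4*, the gene of lubricin) higher, beside 2.35% and 2.86% of all genes tested. Abundances below are TMM-scaled CPM, and log2 fold changes, standard errors (SE) and Benjamini-Hochberg adjusted p-values come from edgeR's quasi-likelihood test over 14404 genes, which had more than 1 CPM in 4 or more samples. Calls required an adjusted p-value under 0.05 and a log2 fold change beyond 1 in either direction. In bulk samples, fewer cells of a type and less RNA per cell cannot be told apart.

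Of the 10 chemokines, 5 were called higher after IL-1β and 0 were called lower, beside 2.86% of all genes tested called higher and 2.35% called lower. *Ccl20*, *Ccl7* and *Ccl2* rose 27.5- to 41.3-fold from near the detection limit, *Ccl5* rose 3.39-fold from a measurable basal level, and *Cxcl10* rose 6.76-fold but stayed rare. *Cxcl14* moved the other way, to 0.584 of its vehicle level. *Ccl25* and *Cx3cl1* did not pass the test, *Cxcl16* passed on the adjusted p-value with a change smaller than 2-fold, and *Cxcl12* was too rare to be tested. Of the 10 members, 9 passed the filter, and 4 of these (*Ccl2*, *Ccl7*, *Ccl20* and *Cxcl10*) passed only through the IL-1β samples, so that they had to differ and their calls say little beyond the values themselves. Without the threshold on the fold change, 6 members had an adjusted p-value under 0.05 and were higher, beside 20.4% of all genes tested, and 1 was lower, beside 19.8%. The IL-1β and vehicle samples did not overlap in 7 of the 9 members tested, beside 36.8% of all genes tested. For *Ccl2*, *Ccl7*, *Ccl20* and *Cxcl10* the filter itself kept the groups apart, so that the 7 cannot be weighed against that share. Of the members free to overlap, *Ccl5*, *Cxcl14* and *Cx3cl1* did not, and *Ccl25* and *Cxcl16* did.

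**Figure D1:**
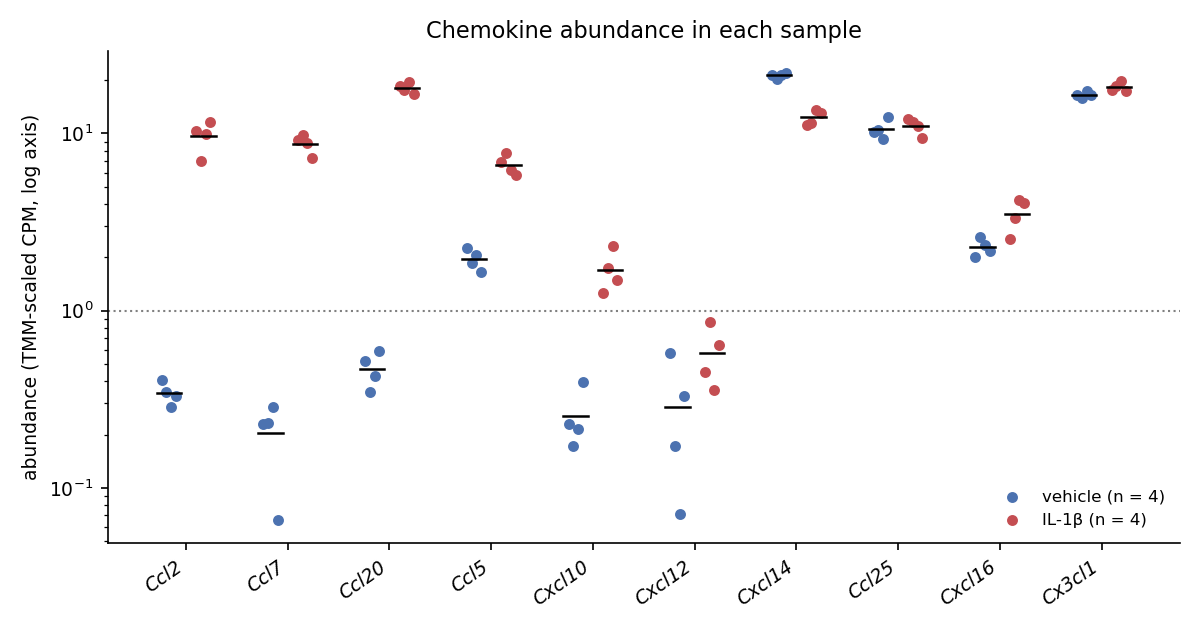
TMM-scaled CPM (log axis) of the 10 chemokine genes in each of the 4 vehicle samples (blue) and 4 IL-1β samples (red), with horizontal bars at the group means and a dotted line at a CPM of 1. *Ccl2*, *Ccl7* and *Ccl20* lie below 0.6 CPM in every vehicle sample and at 6.995 CPM or above in every IL-1β sample, while the groups of *Ccl25*, *Cxcl12* and *Cxcl16* overlap.

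*Ccl20* encodes the only chemokine ligand of CCR6, a receptor of Th17 cells, B cells and immature dendritic cells. It lies on chromosome 1 from 83116766 to 83119167 (GRCm38, plus strand). Its abundance was 18.5, 17.7, 19.5 and 16.6 CPM in IL-1β replicates 1 to 4 and 0.519, 0.347, 0.428 and 0.591 CPM in vehicle replicates 1 to 4. All 4 IL-1β samples were high (18.1 ± 1.25 CPM, mean and SD, n = 4). None overlapped with vehicle, but the filter itself kept the groups apart, so that the p-value adds little to these values. The log2 fold change was 5.24 (SE 0.156, adjusted p = 2.22e-21), which corresponds to a 37.9-fold rise. Of all 10 chemokines it had the largest number of reads among those that rose, with 1013 reads over the IL-1β samples and 30 over the vehicle samples.

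The region from 250 bases before to 50 bases after the start site was available from RefSeq (GRCm38.p6) for 6 of the 10 members, namely *Ccl20*, *Ccl25*, *Cxcl10*, *Cxcl12*, *Cxcl14* and *Cx3cl1*. *Ccl20* and *Cxcl10* are shown because both rose after IL-1β, and *Cxcl14* because it moved the other way. They are written 5′ to 3′ on the strand of the gene, with matches to the κB consensus, the motif bound by NF-κB, in capitals. The regions are chr1:83116516-83116815 (plus strand) for *Ccl20*, chr5:92348840-92349139 (minus strand) for *Cxcl10* and chr13:56296502-56296801 (minus strand) for *Cxcl14*.
Ccl20: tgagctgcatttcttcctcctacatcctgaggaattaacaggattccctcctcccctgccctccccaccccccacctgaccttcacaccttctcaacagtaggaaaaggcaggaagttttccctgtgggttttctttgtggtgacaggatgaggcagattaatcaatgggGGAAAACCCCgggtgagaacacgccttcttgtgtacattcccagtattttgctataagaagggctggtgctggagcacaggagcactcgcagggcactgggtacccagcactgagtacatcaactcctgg
Cxcl10: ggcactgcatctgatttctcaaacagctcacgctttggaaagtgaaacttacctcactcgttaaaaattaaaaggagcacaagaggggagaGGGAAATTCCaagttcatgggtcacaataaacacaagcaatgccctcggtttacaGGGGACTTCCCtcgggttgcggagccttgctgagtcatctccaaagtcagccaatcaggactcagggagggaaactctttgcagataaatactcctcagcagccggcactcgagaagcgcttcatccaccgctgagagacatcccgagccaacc
Cxcl14: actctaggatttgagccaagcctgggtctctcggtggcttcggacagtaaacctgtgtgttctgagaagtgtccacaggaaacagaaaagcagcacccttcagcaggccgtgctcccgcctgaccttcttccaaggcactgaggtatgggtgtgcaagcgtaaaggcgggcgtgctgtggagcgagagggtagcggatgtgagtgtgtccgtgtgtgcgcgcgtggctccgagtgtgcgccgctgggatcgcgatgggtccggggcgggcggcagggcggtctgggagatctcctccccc

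With the start site as position 1, the match in *Ccl20* lies at positions -80 to -71 on the opposite strand and reads GGAAAACCCC on the strand of the gene. *Cxcl10* has a match at positions -159 to -150 and a pair of overlapping matches within positions -104 to -94, all on its own strand. Matches of the κB consensus on either strand were present in 8.46% of the 32851 RefSeq promoter sequences of the same length. *Ccl25*, *Cxcl12*, *Cxcl14* and *Cx3cl1* have none in this window. *Cxcl10* also holds a match to GAAANNGAAA, a core of the interferon-stimulated response element, at positions -213 to -204 (3.44% of all promoters have one) and a match to the AP-1 motif TGANTCA at positions -74 to -68 (7.81%). *Cxcl14* has a match to GAAANNGAAA at positions -172 to -163. Both strands were searched in each case. These matches describe the letters of the sequences, and binding was not measured.

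*Ccl7* and *Ccl2* encode ligands that attract monocytes, CCL2 through CCR2 and CCL7 through CCR1, CCR2 and CCR3. The genes are next to each other on the plus strand of chromosome 11, *Ccl2* from 82035571 to 82037453 and *Ccl7* from 82045712 to 82047525, with 8258 bases between them. *Ccl7* had 102, 135, 148 and 103 reads in IL-1β replicates 1 to 4 (9.19, 9.74, 8.79 and 7.30 CPM) and 4, 4, 4 and 1 reads in vehicle replicates 1 to 4 (0.231, 0.231, 0.285 and 0.0657 CPM). Its log2 fold change of 5.37 (SE 0.233, adjusted p = 1.82e-17), the largest of the 9 tested, rests on 13 vehicle reads in all. *Ccl2* had 115, 97, 167 and 163 reads with IL-1β (10.4, 6.995, 9.92 and 11.6 CPM) and 7, 6, 4 and 5 reads with vehicle (0.404, 0.347, 0.285 and 0.329 CPM), a log2 fold change of 4.78 (SE 0.223, adjusted p = 9.68e-17). For both genes every IL-1β sample was far above every vehicle sample. The filter itself kept these groups apart, so that the p-values add little to the reads.

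In CPM, the neighbours did not follow each other sample by sample in the IL-1β group, at 97 to 167 reads per gene. By that measure replicate 2 had the lowest *Ccl2* and the highest *Ccl7*, and replicate 4 had the highest *Ccl2* and the lowest *Ccl7*. The order in reads was not the same. The ratio of *Ccl2* to *Ccl7* reads was 1.13, 0.719, 1.13 and 1.58 in IL-1β replicates 1 to 4. In the vehicle samples it was 1.75, 1.5, 1.0 and 5.0, which rests on 1 to 7 reads per gene. The ratios of the groups overlap, and these reads do not show that the genes responded to unequal degrees.

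*Ccl5* encodes RANTES, which attracts T cells and monocytes. It lies on chromosome 11 from 83525778 to 83530518 on the minus strand. It had 6.94, 7.72, 6.24 and 5.82 CPM in the IL-1β samples and 2.25, 1.85, 2.07 and 1.64 CPM in the vehicle samples, so that the groups were well apart, with a basal level in every vehicle sample. The log2 fold change was 1.76 (SE 0.151, adjusted p = 9.73e-11).

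Other CC genes of the same chromosome were at or near 0. *Ccl11*, *Ccl12*, *Ccl8* and *Ccl1*, which follow *Ccl7*, had 0 reads in all 8 samples, and so had *Ccl4*. Totals beyond *Ccl5* were 11 reads with IL-1β and 20 with vehicle for *Ccl9*, 3 and 13 for *Ccl6*, and 3 and 4 for *Ccl3*. At a floor of 3 counts per sample, levels below 0.172 to 0.273 CPM were not detectable.

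**Figure D2:**
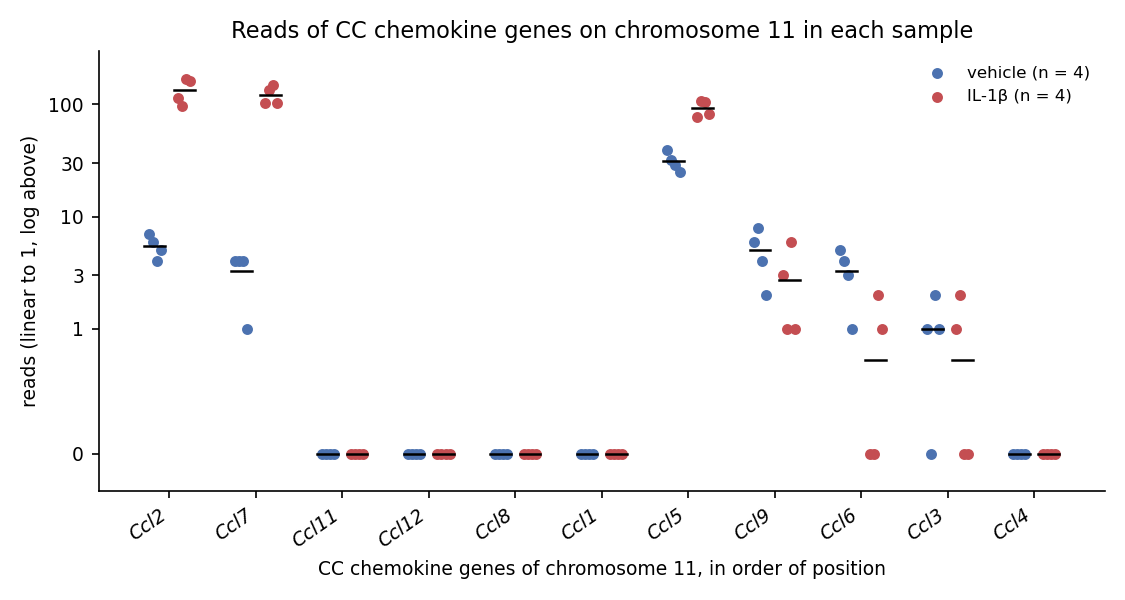
Reads per sample, not scaled for depth (axis linear to 1 and logarithmic above), of the 11 CC chemokine genes listed on chromosome 11, in order of position, for vehicle (blue) and IL-1β (red), with bars at the group means. Only *Ccl2*, *Ccl7* and *Ccl5* exceed 8 reads in any sample, and *Ccl11*, *Ccl12*, *Ccl8*, *Ccl1* and *Ccl4* are at 0 throughout.

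*Cxcl10* encodes the interferon-inducible ligand of CXCR3 on activated T cells and natural killer cells, and lies on chromosome 5 from 92346638 to 92348889 on the minus strand. It had 14, 24, 39 and 21 reads with IL-1β (1.26, 1.73, 2.32 and 1.49 CPM) and 4, 3, 3 and 6 reads with vehicle (0.231, 0.173, 0.214 and 0.394 CPM). The groups did not overlap, but the filter itself kept them apart, so that the p-value below adds little. The spread within the IL-1β group was 0.454 CPM (SD) around a mean of 1.70 CPM. The log2 fold change was 2.76 (SE 0.339, adjusted p = 1.02e-07). Of its exon bases, 5.91% are shared with *Art3*, which stood at 0.284 ± 0.108 CPM (SD, n = 4) after IL-1β and at 0.321 ± 0.172 CPM after vehicle. *Cxcl9* and *Cxcl11*, which flank *Cxcl10* and encode the other CXCR3 ligands, had at most 0.180 CPM in any sample and 0 reads in all 8 samples, respectively.

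*Cxcl14*, which encodes a chemokine made constitutively by many epithelia and connective tissues, was the most abundant of the 10 in vehicle-treated cells per base of exon. It lies on chromosome 13 from 56288643 to 56296551 on the minus strand. Its abundance was 21.4, 20.2, 21.5 and 21.9 CPM in the vehicle samples and 11.2, 11.4, 13.5 and 13.1 CPM in the IL-1β samples. Every sample with IL-1β was thus lower than every sample with vehicle. The log2 fold change was -0.78 (SE 0.0763, adjusted p = 1.53e-09), which passed the test on the adjusted p-value but not the 2-fold threshold. *Cxcl12*, which encodes the CXCR4 ligand that retains haematopoietic cells in bone marrow (chromosome 6, 117168535 to 117181367, plus strand), had 5, 12, 6 and 9 reads with IL-1β and 10, 3, 1 and 5 with vehicle. These are 0.356 to 0.865 CPM and 0.0713 to 0.577 CPM, and the groups overlap (exact permutation test of the difference of means, two-sided, p = 0.114, where 4 samples against 4 cannot go below 0.0286). With no filter on low counts its log2 fold change was 0.93 (SE 0.465, adjusted p = 0.185 from edgeR).

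*Ccl25* encodes the CCR9 ligand of thymus and small intestine, and its gene lies on chromosome 8 from 4325210 to 4360020 on the plus strand. It had 12.1, 11.5, 11.05 and 9.36 CPM with IL-1β and 10.2, 10.5, 9.34 and 12.4 CPM with vehicle. The groups overlap fully, and the log2 fold change was 0.05 (SE 0.102, adjusted p = 0.772). Its exons sum to 7445 bases, of which 2.74% are shared with *Elavl1*, a gene at 97.3 ± 4.52 CPM (SD, n = 4) after IL-1β and at 109.9 ± 5.67 CPM after vehicle. How much of the *Ccl25* count comes from that overlap was not tested.

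The membrane-anchored chemokines changed by less than 2-fold. *Cx3cl1* encodes fractalkine, the CX3CR1 ligand, and lies on chromosome 8 from 94772009 to 94782427 on the plus strand. It had 17.5, 18.5, 19.8 and 17.4 CPM with IL-1β and 16.5, 15.8, 17.3 and 16.4 CPM with vehicle. Every IL-1β sample was above every vehicle sample, but by so little that the log2 fold change of 0.16 (SE 0.0708) had an adjusted p of 0.0767. *Cxcl16* encodes the CXCR6 ligand and lies on chromosome 11 from 70453983 to 70459984 on the minus strand. It had 2.52, 3.32, 4.22 and 4.04 CPM with IL-1β and 2.02, 2.60, 2.35 and 2.17 CPM with vehicle, and IL-1β replicate 1 fell within the vehicle range. Its log2 fold change was 0.65 (SE 0.177, adjusted p = 0.0039), with 18.3% of its exon bases shared with *Zmynd15* (0.406 ± 0.104 and 0.403 ± 0.154 CPM, SD, n = 4).

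**Figure D3:**
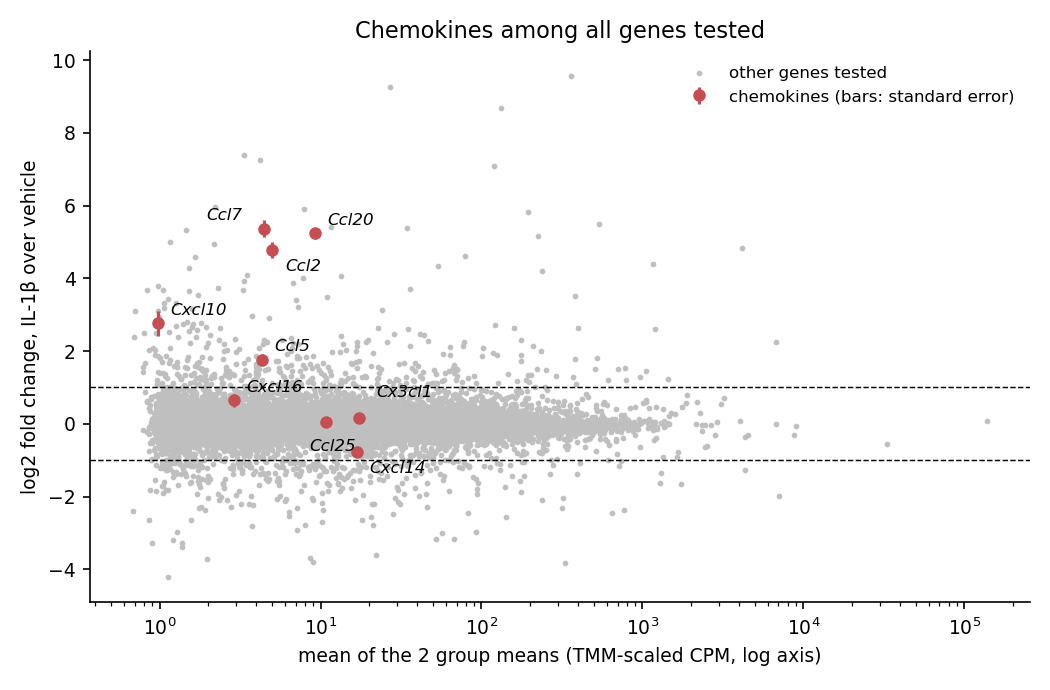
Log2 fold change (IL-1β over vehicle) against the mean of the group means in TMM-scaled CPM (log axis) for the 14404 genes tested (grey) and the 9 chemokines that passed the filter (red, bars show the standard error), with dashed lines at 1 and -1. *Ccl7*, *Ccl20* and *Ccl2* lie between 4.78 and 5.37, *Cxcl10* and *Ccl5* lie above the upper line, and the other 4 lie between the lines.

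Levels were compared between genes as TPM (counts per base of exon, scaled to a fixed total in each sample) from the counts and the listed exon lengths. These lengths sum all annotated exons of a gene and can exceed that of a single transcript, so that the orders depend on them. With vehicle *Ccl25* had 10.6 CPM and *Ccl5* 1.95 CPM, and their order in TPM rests on lengths of 7445 and 960 bases. In vehicle samples the order was *Cxcl14* (32.5 ± 1.05 TPM, SD, n = 4), *Cx3cl1* (11.7 ± 0.572), *Ccl5* (5.71 ± 0.904), *Ccl25* (3.98 ± 0.384) and *Cxcl16* (2.12 ± 0.245), and the samples of each of these were above all samples of the next. *Ccl20*, *Ccl2* and *Ccl7* followed, at 0.926, 0.840 and 0.716 TPM, and could not be ranked within their spread. *Cxcl10* (0.312 TPM) overlapped with *Ccl7*, and *Cxcl12* was last, at 0.0986 TPM. With IL-1β the order was *Ccl20* (34.5 ± 2.60 TPM), *Ccl7* (29.7 ± 4.11), *Ccl2* (23.1 ± 4.46), *Ccl5* (18.9 ± 2.77) and *Cxcl14* (18.2 ± 1.27). Each of these overlapped with the next, while *Cx3cl1* (12.6 ± 0.658 TPM) was below them all. *Ccl25* and *Cxcl16* overlapped at 4.01 and 3.15 TPM, *Cxcl16* also overlapped with *Cxcl10* (2.04 TPM), and *Cxcl12* remained last, at 0.192 TPM.

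The summed level of the 10 chemokines was 59.0 ± 2.26 TPM (SD, n = 4) in the vehicle samples and 146 ± 6.45 TPM in the IL-1β samples. *Cxcl14* made up 54.5 to 56.4% of this sum in the vehicle samples and 11.2 to 13.8% in the IL-1β samples, and *Cx3cl1* made up 19.5 to 20.6% and 8.17 to 8.93%. *Ccl20*, *Ccl7* and *Ccl2* held small fractions with vehicle and the largest with IL-1β. *Ccl20* went from 1.21 to 1.96% to 22.5 to 24.4%, *Ccl7* from 0.386 to 1.67% to 17.5 to 22.8%, and *Ccl2* from 1.17 to 1.65% to 11.5 to 19.5%. *Ccl5* held 8.06 to 10.9% with vehicle and 11.5 to 15.1% with IL-1β. Among the genes tested, 74.5% had a lower mean TPM than *Cxcl14* in vehicle, and 76.3% had a lower mean TPM than *Ccl20* with IL-1β. The leading gene of these 10 in each group was thus of upper-middle abundance. The CXCR2 ligand *Cxcl1*, which is not among the 10, reached a mean of 629.6 TPM with IL-1β.

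**Figure D4:**
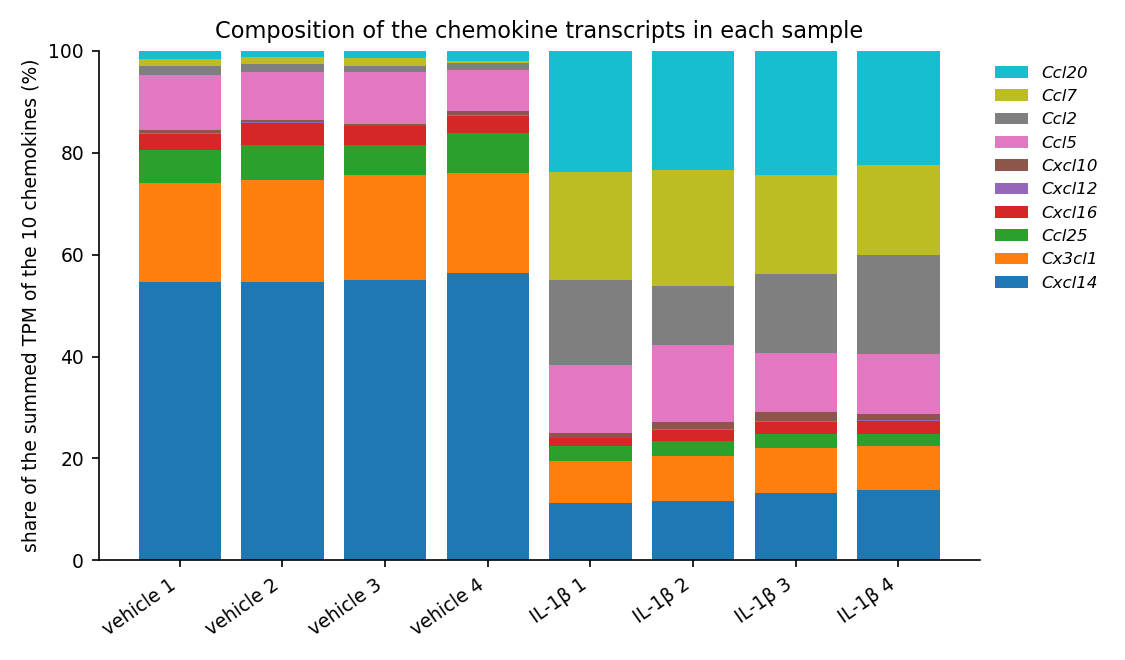
Share of each gene in the summed TPM of the 10 chemokines (%), 1 stacked bar per sample. *Cxcl14* (54.5 to 56.4%) and *Cx3cl1* fill most of each vehicle bar, and *Ccl20*, *Ccl7*, *Ccl2* and *Ccl5* fill most of each IL-1β bar.

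The pentamer ATTTA, the DNA spelling of the core of AU-rich elements that shorten the life of many cytokine mRNAs, was counted in 3′ UTRs, using for each gene its longest coding transcript. *Ccl20* had 9 in 1050 bases, or 8.57 per kb, a density that 1.25% of the 11799 tested genes with a 3′ UTR reached. The densest stretch, on chromosome 1 from 83119060 to 83119084, is shown with the pentamers in capitals.
Ccl20: agatATTTAatgttctgtttATTTA

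*Ccl7* had 4.6 pentamers per kb (2 in 435 bases), *Ccl2* had 3.64 (1 in 275 bases) and *Cxcl10* had 3.01 (3 in 996 bases), densities that 7.70%, 13.2% and 19.8% of tested genes reached. *Cxcl16*, *Cxcl12* and *Cx3cl1* had 1.41, 0.771 and 0.534 per kb, beside a median of 1.34 per kb over tested genes. *Ccl5*, *Ccl25* and *Cxcl14* had none. The life of the transcripts was not measured.

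The receptors of these ligands were nearly absent. Of 16 signalling chemokine receptor genes, 0 passed the filter, and the highest value in any sample was 1.21 CPM, for *Cxcr6* in vehicle replicate 3. Of the 16, 8 had at most 3 counts in every sample. *Ccr2*, *Ccr6* and *Cxcr3*, which encode the main receptors of CCL2, CCL20 and CXCL10, had group means of at most 0.0676 CPM. Atypical receptors differed from this. *Ackr3*, which encodes a scavenger of CXCL12 and CXCL11, had 76.1, 73.5, 72.8 and 75.8 CPM with IL-1β and 13.3, 14.2, 13.5 and 13.6 CPM with vehicle, with the groups far apart (log2 fold change 2.45, SE 0.0484, adjusted p = 1.08e-25). *Ackr4*, which encodes a scavenger of CCL25, stood at 1.79 ± 0.303 CPM (SD, n = 4) after IL-1β and at 1.43 ± 0.474 CPM after vehicle, with overlapping groups (log2 fold change 0.31, adjusted p = 0.329). *Ackr1*, *Ackr2* and *Ccrl2* did not pass the filter, with at most 0.180 CPM in any sample.

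Of 6 genes for the shedding and trimming of chemokines, 5 passed the filter. With the 2-fold threshold 1 was called higher and 1 lower, beside 2.86% and 2.35% of all genes tested. By adjusted p-value alone 4 were higher and 1 was lower, beside 20.4% and 19.8%. *Adam10* and *Adam17* were higher by less than 2-fold, with log2 fold changes of 0.16 (adjusted p = 0.00673) and 0.30 (adjusted p = 2.27e-07). *Rhbdf2*, which encodes the iRhom2 protein that brings ADAM17 to the cell surface, had 122, 111, 119 and 115 CPM with IL-1β and 49.8, 49.7, 50.2 and 46.8 CPM with vehicle. Its groups were far apart (log2 fold change 1.25, SE 0.0398, adjusted p = 1.15e-20), whereas its relative *Rhbdf1* differed by 0.19 on the log2 scale (adjusted p = 0.00377), with overlapping groups. *Timp3*, which encodes an inhibitor of ADAM17, had 2386, 2571, 2633 and 2603 CPM with IL-1β and 5802, 6084, 6159 and 6324 CPM with vehicle. It was lower in every IL-1β sample, with a log2 fold change of -1.26 (SE 0.0292, adjusted p = 5.44e-24). *Dpp4*, whose product trims the amino terminus of CCL5, CXCL10 and CXCL12, did not pass the filter, with at most 0.285 CPM.

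**Figure D5:**
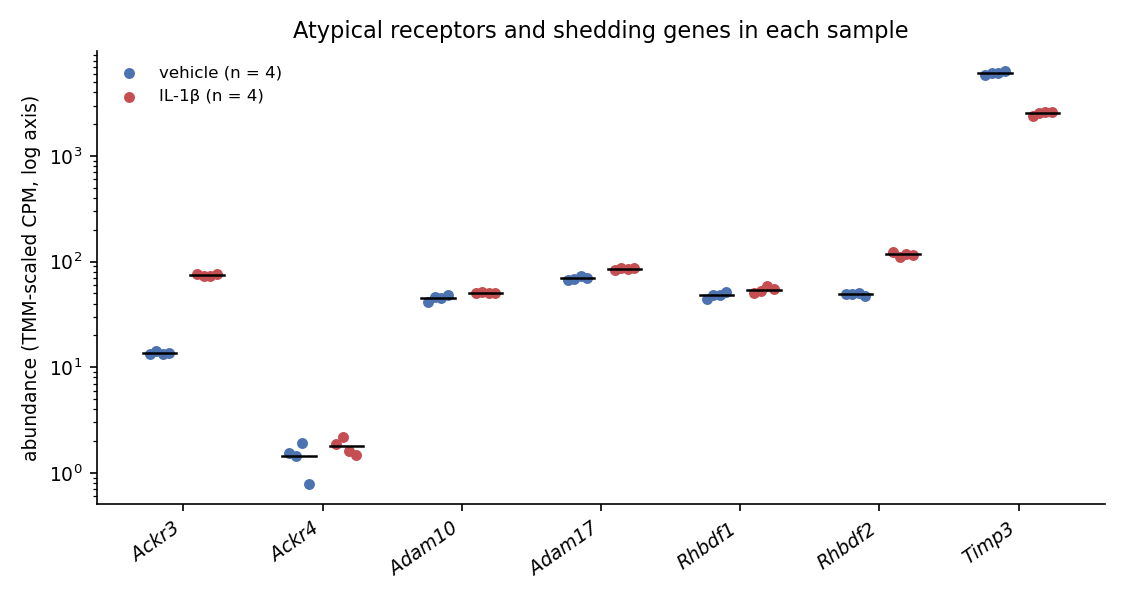
TMM-scaled CPM (log axis) in each vehicle (blue) and IL-1β (red) sample of the atypical receptor and shedding genes that passed the filter, with bars at the group means. *Ackr3* and *Rhbdf2* are higher and *Timp3* is lower in all 4 IL-1β samples, and the groups of *Ackr4* and *Rhbdf1* overlap.

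Of 21 other chemokine ligands (CC and CXC genes and the XC gene *Xcl1*), *Ccl27a* alone passed the filter (log2 fold change 0.33, adjusted p = 0.0967), and 11 had 0 reads in all 8 samples. In the list of 7 CXCR2 ligands and platelet CXC chemokines, 4 genes passed. All 4 (*Cxcl1*, *Cxcl2*, *Cxcl3* and *Cxcl5*) were called higher, beside 2.86% of all genes tested. Of these, *Cxcl3* and *Cxcl5* passed only through the IL-1β samples, so that they had to differ. The list summed to 561 to 612 CPM with IL-1β. The 10 chemokines described here summed to 87.4 to 95.7 CPM with IL-1β and 52.3 to 56.2 CPM with vehicle.

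Genes of NF-κB, which IL-1β activates, were higher together. All 11 listed subunits, inhibitors and feedback genes had an adjusted p-value under 0.05 and were higher, beside 20.4% of all genes tested, and 5 passed the 2-fold threshold, beside 2.86%. Their median log2 fold change was 0.99, beside 0.00 over all genes tested. The genes called were *Nfkbiz* (log2 fold change 2.63), *Bcl3* (1.93), *Nfkbia* (1.89), *Tnfaip3* (1.42) and *Relb* (1.13). *Cxcl10* and *Ccl5* are also known targets of interferon signalling. Of 21 interferon response genes, 11 passed the filter, with a median log2 fold change of 0.29. By adjusted p-value alone 5 were higher and 1 was lower, beside 20.4% and 19.8% of all genes tested. With the 2-fold threshold 1 was called higher and 1 lower, beside 2.86% and 2.35%. The genes called were *Gbp2*, a guanylate-binding protein gene, at 3.23, and *Ifi44* at -1.51. The interferon genes *Ifnb1*, *Ifna4* and *Ifng* had 0 reads in every sample. These are mRNA levels at 24 h. The activity of either pathway was not measured, and the cause of the rise of the chemokines was not tested.

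Leukocytes also make these chemokines, so markers of other cell types are given beside the results. Of 10 macrophage markers, *Cd68* (15.0 ± 1.56 against 9.48 ± 0.730 CPM, SD, n = 4) and *Cd14* (14.0 ± 0.428 against 3.85 ± 0.395 CPM) passed the filter. Both were higher with IL-1β by adjusted p-value, beside 20.4% of all genes tested. *Cd14* (log2 fold change 1.86) was called higher and *Cd68* (0.67) was not, beside 2.86% of all genes tested called higher. The list summed to 28.9 to 32.7 CPM with IL-1β and 13.1 to 15.5 CPM with vehicle. The other 8 macrophage markers reached at most 1.26 CPM in any sample. *Ptprc*, the gene of the pan-leukocyte antigen CD45, had at most 0.433 CPM, and *C1qb* had 0 reads. None of 6 lymphocyte, 6 neutrophil and 5 endothelial markers passed, with maxima of 0.404, 0.115 and 0.713 CPM. Of 5 osteoblast markers, 4 passed and all 4 were lower by adjusted p-value, beside 19.8% of all genes tested. Of these, 3 were called lower (*Ibsp*, log2 fold change -3.69, *Bglap*, -1.62, and *Sp7*, -1.42), beside 2.35%. The list summed to 50.0 to 58.3 CPM with IL-1β and 125 to 135 CPM with vehicle. Of 5 synovial fibroblast markers, *Pdgfra* alone passed, at 41.2 ± 0.807 CPM (SD, n = 4) after IL-1β and at 27.6 ± 0.847 CPM after vehicle (log2 fold change 0.58, adjusted p = 4.32e-11 from edgeR), and the other 4 reached at most 0.636 CPM in any sample. The part of other cells in the rise of *Ccl2*, *Ccl7* and *Ccl20* was not tested beyond these values.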

How the data were processed

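RNA-Seq counts of 4 IL-1β and 4 vehicle samples were used. Trimming (cutadapt), alignment to mm10 (STAR, GENCODE vM20) and counting (featureCounts) were done by the authors. The deposited table holds unscaled counts for each gene symbol and a column of gene lengths. The sources used here do not say if it was made before the batch correction named in the methods. The members and lists were chosen with earlier results of these data known.

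Samples were grouped by treatment. Counts were normalized by TMM (factors 0.984 to 1.01) and compared with edgeR 4.0.16 (quasi-likelihood test, R 4.3.3), with treatment as the only term. The code was checked on simulated data. TPM used the listed lengths, which equal the GENCODE vM21 exon lengths (GRCm38) for all 10 members. Single values outside the fit were compared by an exact permutation test (scipy 1.17.1). Positions and 3′ UTRs came from vM21 and promoters from RefSeq.

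Named were all members, the called genes of each list (at most 6) and all receptor, atypical receptor and shedding genes that passed the filter. For the member with the highest mean TPM and the one with the largest log2 fold change, the 3 other tested genes with the highest Pearson's r of log2(CPM + 1) were named. Genes at the extremes of a list, neighbours on the chromosome, overlapping genes and single markers or receptors were named after their values were seen. Alternatives were DESeq2 1.42.0, other scalings and filters, adjusted p alone, the replicate number as a block, and each sample left out in turn. Certain items of the lists are not reported here.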

Additional observations from a re-analysis of the deposited data

How the results depend on the processing

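The log2 fold changes of the 9 members tested were recomputed with other scalings and filters, DESeq2, the block and single samples left out (134 values), and no call changed among these values, which do not cover *Cxcl10* with the filter on the mean CPM. The direction changed once: the log2 fold change of *Ccl25* was -0.01 without vehicle replicate 3 (-0.01 to 0.12 over all samples left out singly). Leaving out single samples gave log2 fold changes of 4.69 to 4.91 for *Ccl2*, 5.10 to 5.53 for *Ccl7*, 5.11 to 5.36 for *Ccl20*, 1.68 to 1.84 for *Ccl5*, 2.55 to 3.03 for *Cxcl10* and -0.83 to -0.74 for *Cxcl14*. The number of members called was 5 in each of these, and 746 to 769 genes were called over all genes tested, against 751 with all samples. These fits kept the filter made on all 8 samples. *Ccl2*, *Ccl7*, *Ccl20* and *Cxcl10* passed it only through the IL-1β samples, so that their unchanged calls add little. Members called numbered 7 with the adjusted p-value alone, which added *Cxcl14* and *Cxcl16*, and 4 with a mean CPM above 1 over the 8 samples, an alternative chosen after seeing the data under which *Cxcl10* was not tested. Over all genes, 1206 were called with no filter on low counts (635 higher and 571 lower), where 32379 genes were tested, and 5796 with the adjusted p-value alone.

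In a fit with replicate block, 751 genes and 5 members were called, and 745 genes were shared with the fit without the block. Deviations from the group means correlated across genes at r = 0.0321, -0.042, -0.0131 and -0.0653 for samples of the same number. No sample correlated best with its own number, so that the numbers were not taken as pairs. Depth limits *Cxcl12* and the vehicle levels of *Ccl7*, *Ccl2*, *Ccl20* and *Cxcl10*, which rest on 13 to 30 reads per gene over the 4 vehicle samples.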

Other observations

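The genes whose profile over the 8 samples was most like that of a member are given as a description, since all points share the same libraries and a single treatment contrast separates them. For *Cxcl14*, the highest Pearson's r of log2(CPM + 1) over the 8 samples were those of *Scarf2* (0.9987), *1810010H24Rik* (0.9968) and *Tinagl1* (0.9946). Their log2 fold changes were -0.58, -1.13 and -0.58. For *Ccl7*, the closest genes were *Ahnak2* (0.9991), *Sqstm1* (0.9988) and *Irak3* (0.9988), with log2 fold changes of 0.56, 0.66 and 2.24. *Sqstm1* encodes the autophagy receptor p62, and *Irak3* encodes an inhibitor of IL-1 receptor signalling. The genes named for *Ccl7* match it in the pattern across samples and not in the size of the change, which was 5.37 for *Ccl7*. Those named for *Cxcl14* were closer to it in size, as its log2 fold change was -0.78.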
